A study of Mus musculus with 6 samples.

Results

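The ribosomal proteins of the cytosol are the protein part of the particle that translates mRNA, and 34 of their genes were followed here in mouse muscle stem cells treated with prostaglandin E2 (PGE2) or with its DMSO vehicle. The genes were taken by exact symbol from a deposited table of 43283 genes, where each matched 1 row, and comprise 23 genes of the large (60S) and 11 of the small (40S) subunit. The cells came from hindlimb muscle of female C57BL/6 mice, aged 8 to 12 weeks by the sample labels and 2 to 4 months by the series' design text. They had been sorted for α7-integrin and CD34 and against CD45, Sca1, CD31 and CD11b, and were cultured with serum for 24 h with DMSO (Vehicle, 3 libraries) or with PGE2 (3 libraries). RNA came from 5000 to 10000 cells, and its cDNA was amplified before library construction. No genetic change was introduced, the dose of PGE2 is not given in the sources used here, and whether the replicates were separate mice, sorts or dishes is not stated, so p-values measure the spread between these libraries.

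Ribosomal proteins are made in near-equal numbers, because each ribosome holds 1 of nearly every one. Their mRNAs are among the most abundant of a growing cell and carry at their first base a run of pyrimidines, the terminal oligopyrimidine or TOP sequence, through which mTOR signalling and the RNA-binding protein LARP1 set their translation. Muscle stem cells raise ribosome production as they leave quiescence. The same genes have also left many processed pseudogenes in the mouse genome, intronless copies that arose by reverse transcription of the mRNA.

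Levels are given in TPM, the share of all transcripts after correction for length, which can be compared between genes and which keep no read depth, so the depth of the libraries is unknown. TPM is a share of a library: more RNA per cell and more cells of one type cannot be told apart in it. The sum over all genes ran from 992357 to 995645 TPM, and 15400 (PGE2 1) to 19677 (Vehicle 1) genes were listed above 0. The 10 muscle stem cell markers, among them Pax7, Myf5, Myod1 and Itga7, had a summed level of 1003 to 1214 TPM under Vehicle, and of 888.5 to 1177 TPM under PGE2. The 6 endothelial markers summed to 4.16 to 7.42 and 6.9 to 19.93 TPM, the 8 leukocyte markers to 3.31 to 10.99 and 7.17 to 11.13 TPM, and the 6 fibro-adipogenic markers to 18.24 to 31.59 and 24.94 to 45.5 TPM. The 6 pericyte and smooth muscle markers summed to 6.57 to 15.77 and 9.55 to 11.79 TPM, with Pdgfrb listed at 0 in all 6 libraries. The 5 glial markers summed to 4.42 to 5.76 and 3.44 to 9.5 TPM. The 5 red cell markers summed to 0 to 2.09 and 0 to 2.81 TPM. Among these, the haemoglobin genes Hba-a1, Hba-a2, Hbb-bs and Hbb-bt were listed at 0 in all 6 libraries.

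A pyrimidine run at the annotated start was more frequent in the set than over all genes, though most members lacked one. RefSeq (GRCm38.p6) gave a start for 27 of the 34 genes. In 7 of the 27 (25.9%), an annotated start was a C followed by at least 4 further C or T on the gene's own strand, against 3.01% of the 27025 genes in the same table and 25.0% of the 32 matched cytosolic ribosomal protein genes outside this set. A match describes the letters at the annotated start, and annotated starts can lie upstream of the base at which transcription begins. These are the 7 starts, 10 bases before and 20 from the start on, with the pyrimidine run that begins at the start in capitals:

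Rpl35: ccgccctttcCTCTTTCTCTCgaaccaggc

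Rps6: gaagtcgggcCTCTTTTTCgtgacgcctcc

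Rps18: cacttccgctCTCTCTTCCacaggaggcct

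Rpl28: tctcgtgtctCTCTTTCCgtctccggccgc

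Rpl38: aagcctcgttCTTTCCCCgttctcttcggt

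Rpl14: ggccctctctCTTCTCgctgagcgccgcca

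Rplp2: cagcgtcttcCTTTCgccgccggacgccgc

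The run is longest in Rpl35, with 11 pyrimidines (chr2:39005112-39005141, minus strand), and shortest in Rplp2, with 5 (chr7:141447641-141447670, plus strand). Rps6 (chr4:86857348-86857377, minus strand) and Rps18 (chr17:33955646-33955675, minus strand) have 9 each, and Rpl28 (chr7:4792955-4792984, plus strand) and Rpl38 (chr11:114668570-114668599, plus strand) have 8 each. Rpl14 (chr9:120571507-120571536, plus strand) has 6.

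Near-identical copies elsewhere in the genome bear on how the measured levels can be read. For 29 of the 34 genes the table also holds rows for other loci whose transcript matches the coding sequence of the gene at 95% identity or more over at least 80% of its length, 133 rows in all. In the GENCODE M21 annotation of mm10, 123 of them are processed pseudogenes, 5 are transcribed processed pseudogenes and 5 are classed as protein coding. Over the whole coding sequence 10 copies, of 8 genes, are identical to the gene. A read from within such a stretch matches both loci, and TPM values do not record how reads were divided between them. Whether the signal listed for a copy came from the copy or from the gene was not tested. The extreme case is Rpl38 (ENSMUSG00000057322, mm10 chr11:114668524-114672331, plus strand), which encodes a small protein of the large subunit known for its part in the translation of Hox mRNAs. Its whole coding sequence of 213 bases, start and stop codons in capitals, is letter for letter that of the pseudogene Rpl38-ps2 (chr6:140746960-140747172, minus strand):

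Rpl38: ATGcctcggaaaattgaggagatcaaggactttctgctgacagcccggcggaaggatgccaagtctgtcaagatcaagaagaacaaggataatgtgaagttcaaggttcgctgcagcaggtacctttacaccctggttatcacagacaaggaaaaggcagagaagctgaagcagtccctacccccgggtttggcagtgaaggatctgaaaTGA

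The Rpl38 row itself read 7.58, 11.08 and 16.95 TPM in Vehicle libraries 1 to 3, and 6.33, 16.08 and 26.78 TPM in PGE2 libraries 1 to 3 (this order is kept throughout), the lowest mean of the 34 genes. The Rpl38-ps2 row read 909.04, 828.07 and 466.51 TPM across Vehicle and 1199.62, 786.45 and 940.77 TPM across PGE2. The copies thus held 98.4% of the TPM listed for this coding sequence.

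In 4 further pairs the gene and its most abundant copy differ at a single base of the match, shown in capitals with 20 bases on either side:

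Rpl35: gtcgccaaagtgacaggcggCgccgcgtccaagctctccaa

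Gm2000: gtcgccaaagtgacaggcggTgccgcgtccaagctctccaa

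Rpl19: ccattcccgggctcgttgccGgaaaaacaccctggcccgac

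Rpl19-ps11: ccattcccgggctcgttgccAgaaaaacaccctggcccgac

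Rpl11: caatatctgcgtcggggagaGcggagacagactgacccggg

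Gm10288: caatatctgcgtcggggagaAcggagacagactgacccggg

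Rpl30: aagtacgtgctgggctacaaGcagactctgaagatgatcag

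Gm12191: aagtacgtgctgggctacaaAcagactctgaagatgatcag

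In each of these pairs the copy was listed at a higher mean level than the gene. Rpl35 (chr2:39001580-39005624) read 29.36, 21.10 and 21.25 TPM under Vehicle, then 39.01, 22.57 and 26.40 TPM under PGE2. Its copy Gm2000 (chr1:156366040-156366484), classed as protein coding, read 329.80, 273.72 and 214.69 TPM with DMSO and 225.99, 308.80 and 345.60 TPM with PGE2. Rpl19 (chr11:98026710-98030492) read 41.79, 42.78 and 53.90 TPM across Vehicle and 51.88, 69.35 and 17.43 TPM across PGE2. Its copy Rpl19-ps11 (chr8:19492936-19493526) read 340.03, 301.25 and 225.84 TPM under Vehicle, then 882.53, 281.56 and 205.19 TPM under PGE2, with PGE2 1 far above the other libraries. The Rpl30 copy Gm12191 (chr11:49678710-49679057) likewise read 1806.65 TPM in PGE2 1 and between 253.30 and 541.54 TPM elsewhere.

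Copies carried more TPM than the gene's own row for 15 of the 34 genes, and 28 copies of 24 genes reached 10% or more of their gene's mean. The 3 most abundant matched Rpl5, Rps23 and Rps6 without a mismatch. Rpl5 binds the 5S rRNA, and its copy Gm15500 read 1358.32, 1117.68 and 889.63 TPM with DMSO and 2801.66, 914.24 and 873.48 TPM with PGE2. Rps23 lines the decoding centre, and Rps23-ps1 read between 680.84 and 1802.93 TPM over the 6 libraries. Its match covers 98.4% of the coding sequence, so Rps23-ps1 is not counted among the identical copies. Rps6, whose phosphorylation by S6 kinase is the usual readout of mTOR activity, has the copy Rps6-ps4, at 674.30 to 2213.56 TPM. Further copies identical over the whole coding sequence belong to Rpl10 (Rpl10-ps3 and Rpl10-ps1), Rpl13 (Gm12918), Rpl27 (Rpl27-ps3 and Gm11518), Rpl28 (Rpl28-ps1) and Rps16 (Rps16-ps2). Gm11518 was listed at 0 in all 6 libraries. Rpl8, Rpl23, Rplp2, Rps3 and Rps9 had no copy by these criteria.

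**Figure D1:**
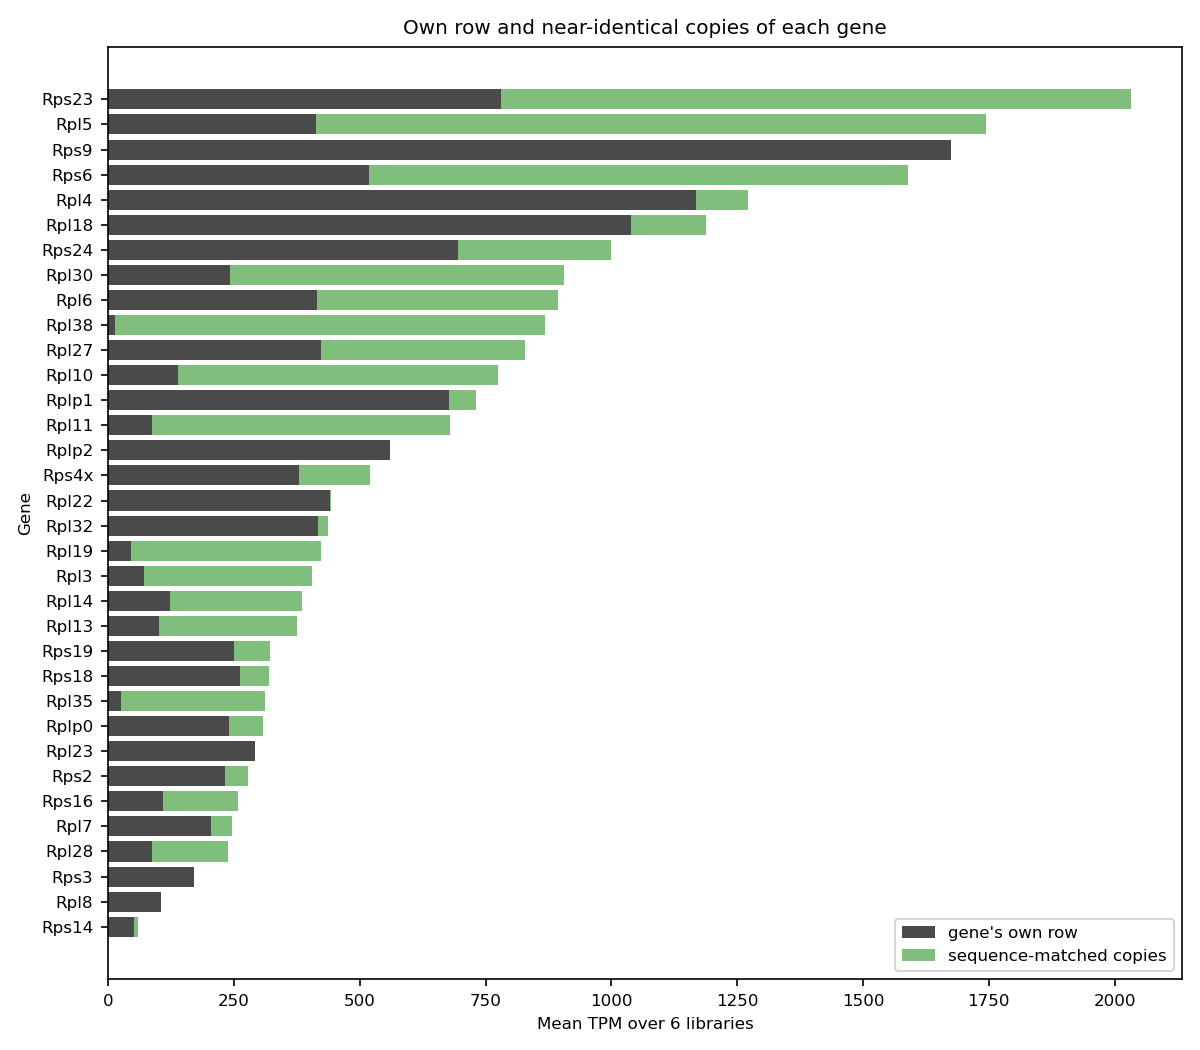
Mean TPM over the 6 libraries (x axis) of each ribosomal protein gene (y axis), split into its own row (dark) and its sequence-matched copies (green). Rpl38 is almost all copies (98.4%), whereas Rps9, Rplp2, Rpl23, Rps3 and Rpl8 have none.

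Levels differed widely between the genes, and less so once copies were added. Mean TPM of the own rows over the 6 libraries ran from 14.1 for Rpl38 to 1675.8 for Rps9, a 119-fold range, with a median of 246.1 TPM. With copies added the range was 33.7-fold, from 60.3 TPM for Rps14 to 2032.3 TPM for Rps23, the median was 439.8 TPM and the SD of the log2 means between genes was 1.16 in place of 1.58. The 3 highest own rows were Rps9, Rpl4 and Rpl18 and the 3 lowest Rpl38, Rpl35 and Rpl19. The top 3 did not differ beyond their spread between libraries. Rps9 read 3330.16, 1683.22 and 567.01 TPM across Vehicle and 735.97, 1773.26 and 1965.42 TPM across PGE2. Rpl4 read 1587.78, 1162.46 and 781.97 TPM under Vehicle, then 1652.54, 969.63 and 856.23 TPM under PGE2, within the range of Rps9. Rpl18 read 1782.52, 1190.82 and 564.19 TPM with DMSO and 237.82, 1818.79 and 635.08 TPM with PGE2.

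**Figure D2:**
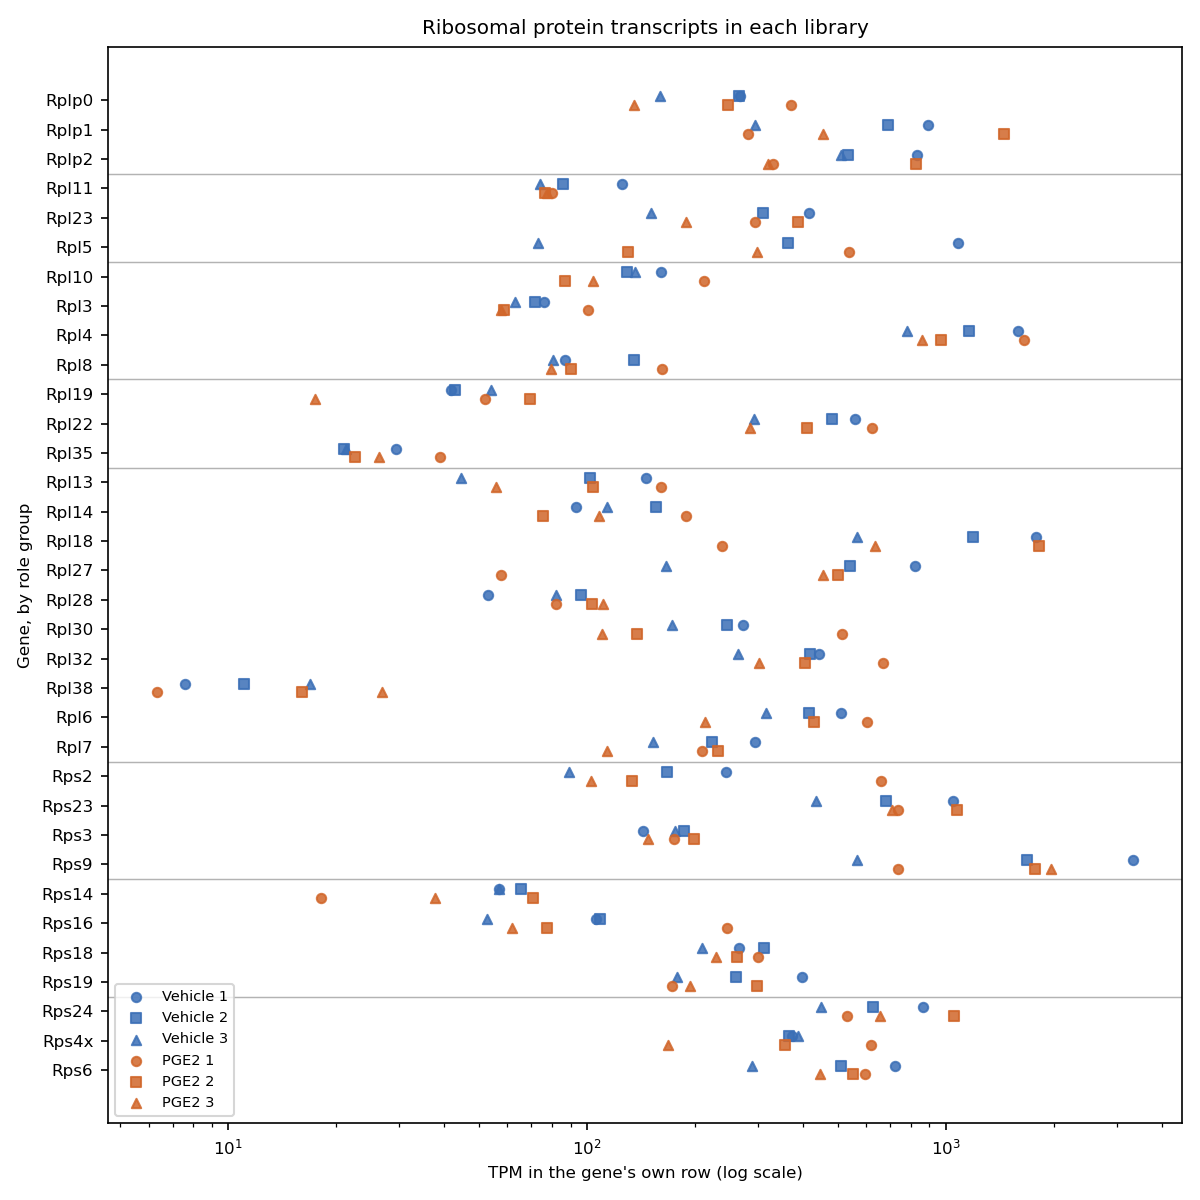
TPM in the own row of each gene (x axis, log scale) in the 3 Vehicle (blue) and 3 PGE2 (orange) libraries, with genes on the y axis in the order stalk, 5S particle, peptidyl transferase side, tunnel exit, other large subunit, mRNA entry and decoding, small subunit head and platform, and small subunit body. The groups overlap for every gene, and Vehicle 3 is often the lowest of the blue points.

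PGE2 was compared with Vehicle by limma on log2(TPM + 1) over the 12781 genes that reached 1 TPM in 3 or more libraries, to ask whether the transcripts of the ribosome changed after a day with the lipid. None of the ribosomal protein transcripts was called. All 34 were tested, 0 passed a Benjamini-Hochberg adjusted p under 0.05 (0% of all tested genes did), 0 had an unadjusted p under 0.05 (3.63% of all tested genes) and in 0 did the groups not overlap (8.01% of all tested genes). The smallest unadjusted limma p was 0.161 and the smallest adjusted p 1.0. The fitted value was higher with PGE2 in 16 and lower in 18, where 43.9% of all tested genes were higher, and the median log2 change was -0.01, against -0.07 over all tested genes. By subunit the median was -0.03 for the 23 large subunit genes (9 higher) and 0.04 for the 11 small subunit genes (7 higher).

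The precision of these estimates sets what they can show. The 95% confidence interval of a log2 change had a median half-width of 0.88, a 1.84-fold difference, and ran from 0.62 to 1.87 across the 34 genes. For a typical gene of the set, an estimate smaller than that would not reach an unadjusted limma p of 0.05. The adjusted threshold over all tested genes asks for a larger difference, so changes above 1.84-fold could also go uncalled. The result does not show that the levels were equal. With the copies added to each gene, 0 of 34 passed the adjusted threshold (0% of all tested genes), an unadjusted p under 0.05 (3.66%) or the criterion of no overlap (8.04%), and the smallest limma unadjusted p was 0.128. Then 19 were higher and 15 lower (43.9% of all tested genes were higher), and the median log2 change was 0.02. The sign of the change was the same with and without copies for 27 of the 34, and turned for Rpl5, Rpl6, Rpl11, Rpl19, Rpl30, Rplp1 and Rps18.

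**Figure D3:**
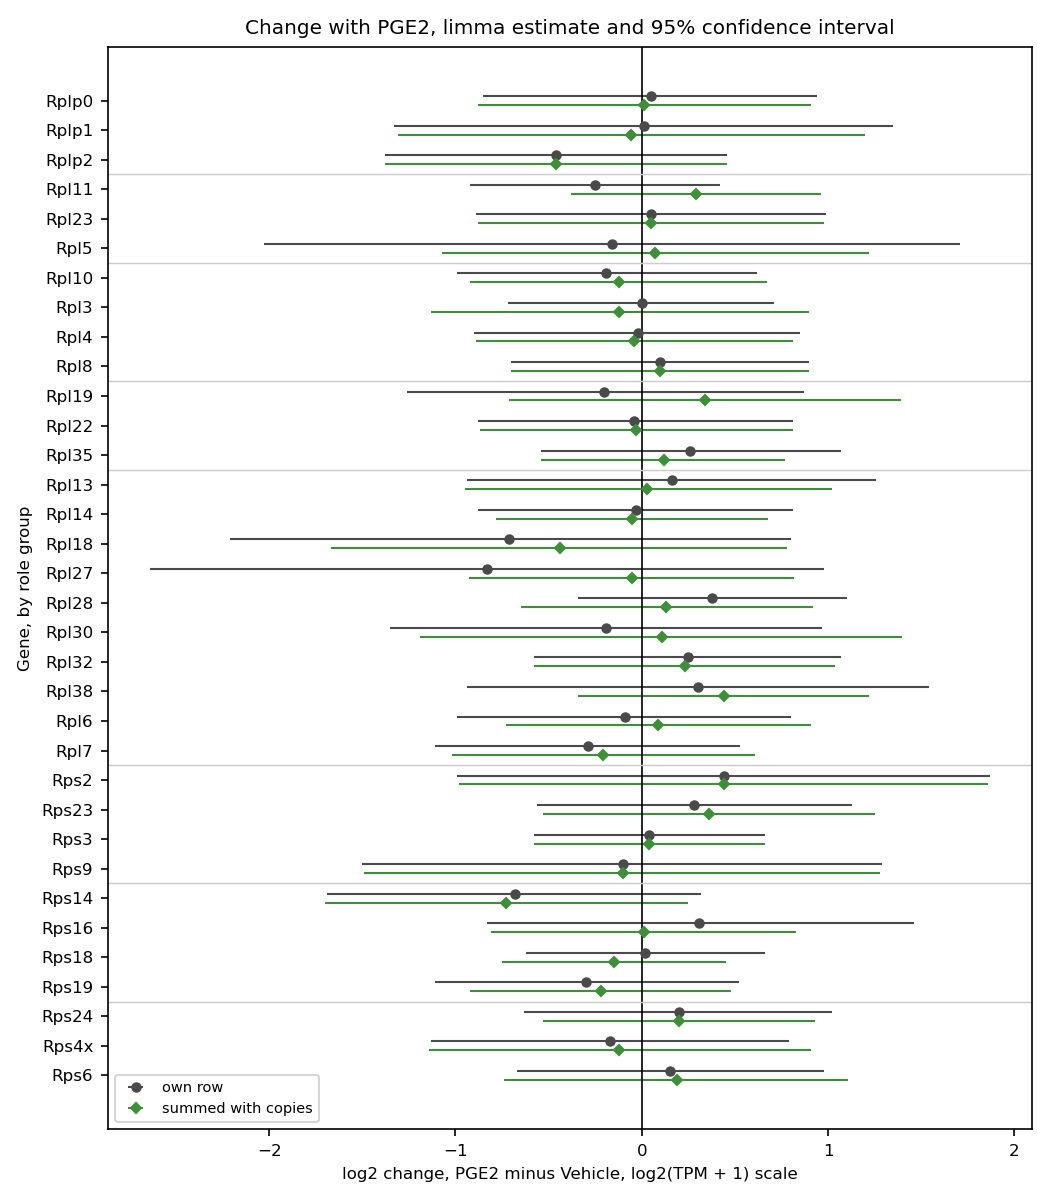
Log2 change from Vehicle to PGE2 (x axis, log2(TPM + 1) scale) with its 95% confidence interval from limma, for each gene (y axis, by role group) in its own row (dark circles) and summed with its copies (green diamonds). All intervals cross 0, and the estimate for Rpl27 moves from -0.83 to -0.05 when copies are added.

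The stalk proteins bind the elongation factors at the entry of the large subunit: Rplp0 is the base, and Rplp1 and Rplp2 attach to it as acidic dimers. Rplp0 read 266.88, 265.99 and 159.54 TPM across Vehicle and 371.30, 247.38 and 135.69 TPM across PGE2, with PGE2 1 highest and PGE2 3 lowest. Rplp2 read 834.14, 534.01 and 510.63 TPM under Vehicle, then 331.04, 827.61 and 318.82 TPM under PGE2. A pair of PGE2 libraries thus lay below all Vehicle libraries and PGE2 2 lay among them, and the log2 change was -0.46 (95% confidence interval -1.38 to 0.46). The estimate was -0.23 without Vehicle 1, -0.25 without PGE2 1, -0.22 without PGE2 3 and -0.91 without PGE2 2, so its size depended on single libraries while its sign did not. Rplp1 had its lowest value, 280.51 TPM, in PGE2 1 and its highest, 1453.79 TPM, in PGE2 2.

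Rpl5 and Rpl11 form a particle with the 5S rRNA that, with Rpl23, can also bind Mdm2 and so stabilise p53 when ribosome assembly is disturbed. Rpl5 varied most of all 34 genes within the groups, at 1081.68, 363.84 and 73.27 TPM with DMSO and 537.35, 130.05 and 297.19 TPM with PGE2, a 14.8-fold range. With its copies added the range was 3.46-fold. Rpl11 was among the 3 steadiest, at 125.49, 85.67 and 74.10 TPM across Vehicle and 79.74, 76.30 and 77.62 TPM across PGE2. Its log2 change was -0.25 in its own row and 0.29 with its copies, which held 87.3% of the sum, so the direction turned with the copies. Without Vehicle 1, the highest library of the own row, it was -0.03. Rpl23 has no copy and read 415.58, 309.76 and 151.13 TPM under Vehicle, then 294.30, 388.21 and 188.41 TPM under PGE2. In both groups replicate 3 was the lowest for Rpl23. Mdm2 itself read 187.79, 163.59 and 156.94 TPM with DMSO and 182.79, 97.26 and 133.12 TPM with PGE2.

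Rpl3, Rpl4, Rpl8 and Rpl10 reach toward the peptidyl transferase centre, and Rpl10 joins the subunit last, in the cytoplasm. Their median log2 change was -0.01. Rpl8 read 86.83, 135.27 and 80.42 TPM across Vehicle and 162.41, 90.20 and 79.48 TPM across PGE2. Rpl10, of which copies held 82.1% of the sum, read 161.20, 129.27 and 135.94 TPM under Vehicle, then 212.40, 86.79 and 104.10 TPM under PGE2. Rpl8, Rpl10, Rpl3 and Rpl4 were all highest in PGE2 1. Around the exit of the nascent chain, Rpl19 had a log2 change of -0.20 in its own row and 0.34 with copies, the same change of direction as in Rpl11. Without PGE2 3, where the Rpl19 row was lowest, its own log2 change was 0.38. Rpl22, which can be replaced by its paralog Rpl22l1, read between 284.73 and 623.95 TPM. Rpl22l1 read 240.82, 161.68 and 32.31 TPM with DMSO and 175.70, 301.91 and 51.73 TPM with PGE2, lowest in replicate 3 of both groups, as Rpl22 was. Of 5 tested paralogs of ribosomal proteins, 2 were higher and 3 lower (43.9% of all tested genes were higher).

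Of the remaining 10 large subunit genes, Rpl27 had the lowest estimate and Rpl28 the highest. Rpl27 read 821.59, 540.80 and 166.45 TPM across Vehicle and 57.47, 500.04 and 453.74 TPM across PGE2, for a log2 change of -0.83 (95% confidence interval -2.64 to 0.98). PGE2 1 was far below the other libraries, and without it the log2 change was 0.18. The identical copy Rpl27-ps3 read 612.79 TPM in PGE2 1, its highest value, and between 291.82 and 440.92 TPM in the other libraries, and the summed log2 change was -0.05. Rpl18 had a log2 change of -0.71 (95% confidence interval -2.21 to 0.80) that was 0.02 without PGE2 1 and -0.44 with copies. Rpl28 read 53.10, 96.57 and 82.22 TPM under Vehicle, then 81.92, 103.58 and 110.60 TPM under PGE2. Its log2 change was 0.38 (95% confidence interval -0.34 to 1.10), with 1 PGE2 library inside the range of Vehicle. It was 0.13 without Vehicle 1, the lowest library, and also 0.13 with copies. Rpl38 had a log2 change of 0.30 in its own row (-0.14 without PGE2 3) and 0.44 with copies. The other genes of this group, Rpl6, Rpl7, Rpl13, Rpl14, Rpl30 and Rpl32, lay between 44.71 TPM (Rpl13, Vehicle 3) and 670.30 TPM (Rpl32, PGE2 1), with the groups overlapping in each.

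In the small subunit, Rps2, Rps3 and Rps9 form the channel by which mRNA enters, and Rps23 reaches into the decoding centre. Rps2 had the highest estimate of all 34 genes and read 244.01, 167.49 and 89.03 TPM with DMSO and 661.35, 133.83 and 102.89 TPM with PGE2. The log2 change of 0.44 (95% confidence interval -0.99 to 1.87) rested on PGE2 1 and was -0.39 without it. Rps3, which has no copy, was the steadiest of the 34 genes at 143.51, 187.03 and 176.38 TPM across Vehicle and 174.81, 198.55 and 148.19 TPM across PGE2, a 1.38-fold range and a log2 change of 0.04 (95% confidence interval -0.58 to 0.66). Rps9, which also has no copy, ranged 5.87-fold over the same libraries, with Vehicle 1 highest and Vehicle 3 lowest.

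The head and platform proteins include Rps14, at the platform, and Rps19, the gene most often mutated in Diamond-Blackfan anaemia. Rps14 had the smallest p of the 34 genes and read 56.87, 65.35 and 56.71 TPM under Vehicle, then 18.17, 70.95 and 37.72 TPM under PGE2, so that PGE2 2 was the highest library of all and the others were below Vehicle. The log2 change of -0.68 (95% confidence interval -1.69 to 0.32) had a limma unadjusted p of 0.161 and an adjusted p of 1.0, and it was -0.20 without PGE2 1 and -1.15 without PGE2 2. Rps18 was steady, at 265.59, 311.22 and 208.79 TPM with DMSO and 299.00, 262.35 and 228.43 TPM with PGE2. Rps16 read 105.93, 108.62 and 52.75 TPM across Vehicle and 245.29, 77.26 and 61.68 TPM across PGE2, with PGE2 1 far above the rest. Rps19 read from 172.87 TPM (PGE2 1) to 397.69 TPM (Vehicle 1).

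In the body of the small subunit, Rps4x, whose gene lies on the X chromosome, read 373.34, 366.83 and 388.00 TPM under Vehicle, then 619.33, 356.25 and 168.46 TPM under PGE2. The Vehicle libraries of Rps4x differed by little (376.1 ± 10.8 TPM, SD, n = 3), whereas the PGE2 libraries spread to either side of them (381.3 ± 226.5 TPM, SD, n = 3). Rps24 read 864.71, 626.46 and 448.83 TPM with DMSO and 530.71, 1051.60 and 655.65 TPM with PGE2. Rps6 ran from 288.09 TPM (Vehicle 3) to 724.29 TPM (Vehicle 1), with its PGE2 libraries in between.

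The differences between libraries of one group were larger than that between the groups. The 34 own rows summed to 18140, 12662 and 7474 TPM under Vehicle, and to 12254, 14503 and 9743 TPM under PGE2. As a share of the library this was 1.28% ± 0.535 in Vehicle and 1.22% ± 0.241 in PGE2 (SD, n = 3 each). Vehicle 1 was the highest Vehicle library for 24 of the 34 genes and Vehicle 3 the lowest for 26, and PGE2 3 was the lowest PGE2 library for 20. The median deviation of the genes from their own means was 0.37, 0.14 and -0.39 in Vehicle and 0.26, 0.13 and -0.33 in PGE2 on the log2 scale, against 0.07, 0.05 and 0.03 and 0.21, -0.10 and -0.17 over all tested genes. In each group the library with the lowest share had the highest share of mitochondrial genes, which were 20.9%, 28.3% and 33.6% of TPM in Vehicle and 23.0%, 25.5% and 30.4% in PGE2. With mitochondrial genes left out of the total, the share of the 34 genes was 2.31%, 1.77% and 1.13% in Vehicle and 1.60%, 1.96% and 1.41% in PGE2, in the same order as before.

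PGE2 1 stood apart in how the signal lay between genes and copies. The copies summed to between 7882 and 9700 TPM in 5 libraries and to 17830 TPM in PGE2 1, where they made up 59.3% of the joint sum, against 34.4% to 51.6% elsewhere. The own rows of PGE2 1 had the fourth highest sum of the 6 libraries, although 15 of the 34 genes had their highest own value there, more than in any other library. The joint sum of 30084 TPM was the highest, and 19 of the 34 genes had their highest summed value there. Of the 28 copies named by the 10% rule, 20 were higher in PGE2 1 than in every other library. PGE2 1 also had the fewest genes listed above 0. Without PGE2 1, 0 of the 34 genes passed limma's adjusted threshold (0.00782% of all tested genes), 1 had an unadjusted p under 0.05 (7.66%), 5 had groups that did not overlap (25.9%) and 12 were higher with PGE2 (37.8%), all near or under the share over all genes. Its share in the wider PGE2 spread was not tested. The median SD of the genes within PGE2 was 0.67 on the log2 scale and within Vehicle 0.46, and the 5193 other genes in the same range of mean TPM had medians of 0.52 and 0.32. The joint sum was 2.19% ± 0.617 of the library in Vehicle and 2.36% ± 0.634 in PGE2 (SD, n = 3 each), again closer than the libraries within a group.

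**Figure D4:**
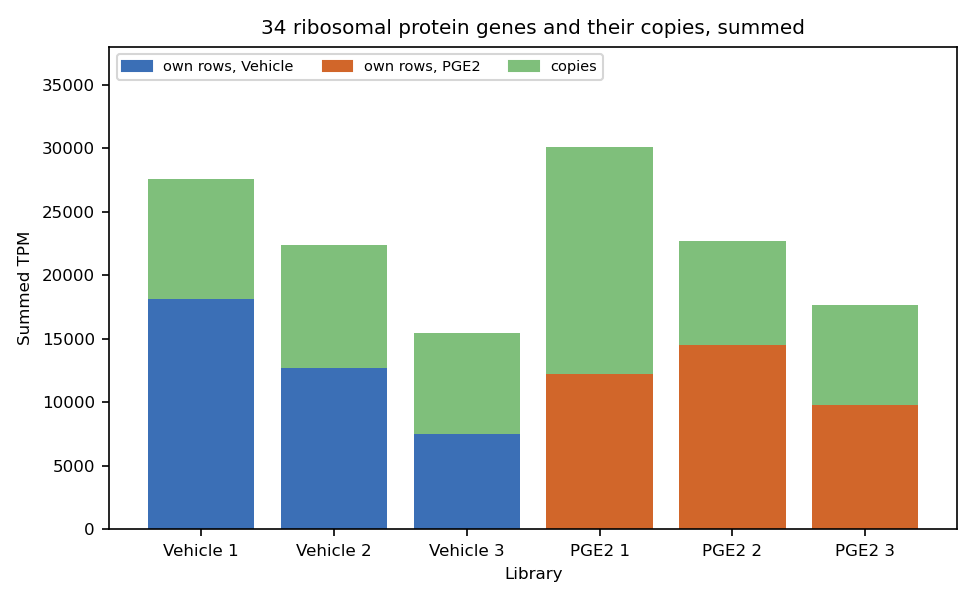
Summed TPM (y axis) of the 34 genes' own rows (blue for Vehicle, orange for PGE2) with their sequence-matched copies stacked on top (green), for each library (x axis). The copies reach 17830 TPM in PGE2 1 and at most 9700 TPM in the other 5 libraries.

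**Figure D5:**
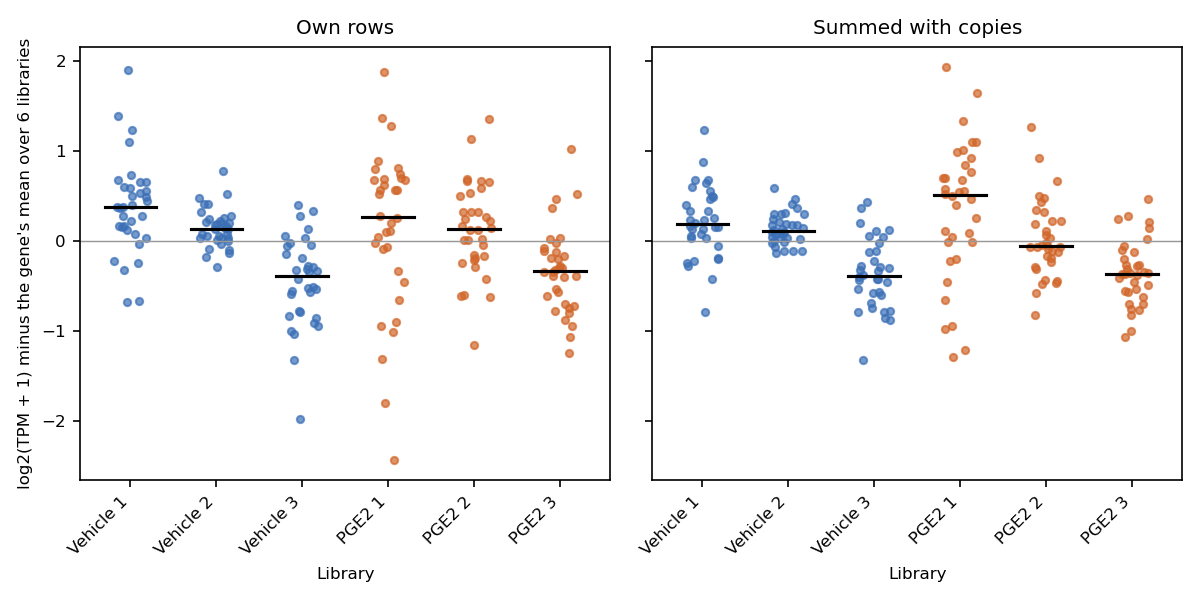
Deviation of each gene from its own mean over the 6 libraries (y axis, log2(TPM + 1)) by library (x axis), for own rows (left) and sums with copies (right), with black lines at the medians. In own rows the medians run from 0.37 in Vehicle 1 to -0.39 in Vehicle 3, and PGE2 1 has the widest scatter.

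The rest of the translation machinery was given by lists, none of which held a gene past the limma threshold. The other cytosolic ribosomal proteins had 45 tested genes, 15 higher and 30 lower with PGE2 (median log2 change -0.10), where 43.9% of all tested genes were higher. Of these, 1 had an unadjusted p under 0.05 (3.63% of all tested genes) and was also the 1 whose groups did not overlap (8.01% of all tested genes), so neither count exceeded the share over all genes. It was Rpl24, a large subunit protein at the subunit interface. Rpl24 read 121.08, 90.85 and 97.02 TPM across Vehicle and 49.17, 69.13 and 26.98 TPM across PGE2, a log2 change of -1.16 (95% confidence interval -1.99 to -0.33, limma unadjusted p = 0.0113, adjusted p = 1.0). Each PGE2 library of Rpl24 lay below each Vehicle library. Copies were searched only for the 34 genes of the set, so the values of Rpl24 and of the other listed genes are own rows without copies. Rps21, the next by p, overlapped, at 128.59, 151.37 and 114.48 TPM under Vehicle, then 43.78, 118.26 and 89.93 TPM under PGE2.

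Mitochondrial ribosomal proteins, encoded in the nucleus for a separate ribosome, had 38 of 77 tested genes higher and 39 lower (43.9% of all tested genes were higher). Of the 77, 3 had an unadjusted limma p under 0.05, close to the 3.63% over all tested genes. The groups did not overlap in 4 with higher and 1 with lower values, under the 8.01% over all tested genes. Mrpl27, one of the 4, read 16.99, 12.48 and 5.29 TPM with DMSO and 30.91, 22.51 and 24.15 TPM with PGE2, each PGE2 library above each Vehicle library (log2 change 1.21, 0.77 without Vehicle 3, limma adjusted p = 1.0). Mrps12 read 5.62, 10.60 and 3.37 TPM across Vehicle and 46.56, 40.99 and 7.19 TPM across PGE2, with the lowest PGE2 library inside the range of Vehicle. Mrps31 read 60.99, 21.32 and 53.54 TPM under Vehicle, then 7.54, 26.63 and 20.26 TPM under PGE2, with PGE2 2 above Vehicle 2 and a limma adjusted p of 1.0.

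Of 49 tested ribosome biogenesis factors, 18 were higher and 31 lower (median -0.08), and 0 had an unadjusted p under 0.05 in limma. For this list and those that follow, 43.9% of all tested genes were higher and 3.63% had an unadjusted limma p under 0.05. At that share, lists of this size can hold 0 such genes. In 1 of the 49 the groups did not overlap, with higher values under PGE2. Pno1, a factor of small subunit assembly, read 122.48, 114.73 and 95.71 TPM with DMSO and 76.58, 110.75 and 62.64 TPM with PGE2. Of 33 translation initiation factors, 17 were higher (median 0.03), and of 11 genes listed under elongation and termination, 5 were. In Eef1e1, of the latter list, the PGE2 libraries lay below Vehicle without overlap, at 166.53, 102.54 and 111.84 TPM across Vehicle and 70.01, 97.32 and 96.25 TPM across PGE2. The log2 change of Eef1e1 was -0.51 (95% confidence interval -1.2 to 0.18, limma unadjusted p = 0.133). Of 17 mRNAs outside the ribosome that carry a TOP sequence, 8 were higher and 9 lower (median -0.01). The histone chaperone gene Nap1l1, of that list, was also lower without overlap, at 361.28, 312.16 and 324.63 TPM with DMSO and 296.02, 311.36 and 268.18 TPM with PGE2. Its PGE2 2 library lay just under Vehicle 2, and its log2 change was -0.19 (95% confidence interval -0.78 to 0.4, limma unadjusted p = 0.494). Among 17 genes of mTOR, Myc and TOP control, 6 were higher and 11 lower, and none had an unadjusted p under 0.05. Mtor, the kinase itself, read 8.49, 5.28 and 8.15 TPM across Vehicle and 10.97, 10.97 and 12.85 TPM across PGE2, without overlap (log2 change 0.62, limma unadjusted p = 0.186, adjusted p = 1.0). Such separation occurred in 8.01% of all tested genes, and Mtor, Eef1e1 and Nap1l1 were each the 1 such gene of their list. Eif4ebp1, the mTOR-controlled inhibitor of translation initiation, read 11.35, 14.92 and 19.88 TPM under Vehicle, then 7.01, 3.90 and 14.52 TPM under PGE2. Gas5, a noncoding TOP gene that hosts small nucleolar RNAs, read 3332.76, 1901.02 and 1650.39 TPM with DMSO and 1162.97, 1581.89 and 1757.31 TPM with PGE2, and 4 of 9 tested host genes were higher.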

How the data were processed

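The authors deposited 1 table of TPM with 1 column per library. The unit was inferred from the deposited values, and STAR, RSEM and mm10 are named in the submitters' processing notes. The sources used here do not give versions or the annotation. PGE2 and Vehicle (3 libraries each, grouped by sample title) were compared with limma 3.58.1 in R 4.3.3 on log2(TPM + 1), with a variance prior with a mean trend, over the 12781 genes that reached 1 TPM in 3 or more libraries. The test was two-sided and p-values were adjusted by Benjamini-Hochberg over the 12781 genes. Log2 changes understate those of low genes. The fit was also run on simulated libraries, drawn independently with the same spread in both groups. That setting lacks the wider PGE2 spread and the shifts between libraries seen here, so it does not vouch for these estimates. Positions and transcripts came from GENCODE M21. Copies were found with blastn 2.17.0 as rows matching a gene's coding sequence at 95% identity over 80% of its length, the match being at least 50% of the copy's transcript. These criteria were chosen after the values were seen. Start sites came from RefSeq. Tables and figures used Python 3.11.15. The genes and lists were chosen with earlier results of these data known. Values by library are given for genes with an unadjusted p under 0.1 or no overlap (none qualified), the 3 highest, lowest, most and least variable genes, the extreme changes per role group, and up to 3 genes per list by p. Rplp1, Rps6, Rps19 and Rpl22 and the sequences shown were chosen after the values were seen. Copies at 10% or more of their gene's mean TPM count as named.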

Additional observations from a re-analysis of the deposited data

How the results depend on the processing

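Under all 19 alternatives run, 0 of the 34 genes passed limma's adjusted threshold (smallest adjusted p 0.582, smallest unadjusted p 0.0175). The median log2 change of the 34 genes ran from -0.21 to 0.20 and the difference in their summed share, PGE2 minus Vehicle, from -0.32 to 0.21 percentage points, both within the spread between libraries (0.35 and 0.41). Over all genes the count called was 0, except 1 with a robust variance prior and 0 to 2 when a library was left out (1 without Vehicle 1, PGE2 1 or PGE2 2, and 2 without PGE2 3). Of the 34 genes, 5 kept the sign of their log2 change under every alternative and 17 under all that used every library. Left-out libraries are given here for selected genes only, and others turned too: 16 of the 34 were higher in the main fit and 12 without PGE2 1. Among the selected genes, direction turned without PGE2 1 in Rpl18 (range over left-out libraries -1.45 to 0.02), Rpl27 (-1.49 to 0.18) and Rps2 (-0.39 to 0.95). It turned without PGE2 3 in Rpl38 (-0.14 to 0.82) and Rpl19 (-0.59 to 0.38). Left-out libraries moved Rps14 from -1.15 to -0.20, Rplp2 from -0.91 to -0.22, Rpl28 from 0.13 to 0.56 and Rpl11 from -0.41 to -0.03 without turning them. Rps3, near 0 throughout, turned without Vehicle 1 or PGE2 2 (-0.07 to 0.15) and with library weights (-0.05). Direction also turned with copies, an alternative added after seeing the data, among others in Rpl11 (0.29 at 95% or 98% identity) and Rpl19 (0.34 at either, 0.33 with rows named as pseudogenes). The cause was not tested. With the replicate number as a block the count called was 0 and the median -0.01. Same-numbered libraries correlated at -0.0623, -0.044 and 0.0698 in their deviations from the group means, and not every library correlated best with its own number. The mitochondrial share rose with the replicate number in both groups (20.9%, 28.3% and 33.6% in Vehicle, 23.0%, 25.5% and 30.4% in PGE2). These correlations cannot decide whether the numbers mark pairs, because deviations of 3 libraries from their own mean are not independent. Depth is unknown and sets no interval here.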
